A study of Mus musculus with 35 samples.

Results

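Cd5 and Cd6 are 2 of the 52636 genes in the count table of this study, taken by their Ensembl identifiers ENSMUSG00000024669 and ENSMUSG00000024670. They were followed over all 35 libraries. RNA was sequenced from CD8 T cells sorted by flow cytometry from C57BL/6 mice. All mice carried 1 copy of a Cre transgene that the labels name Lcre. They differed in Dot1l, the gene of the enzyme that methylates lysine 79 of histone H3. The KO mice had both copies floxed (Dot1Lfl/fl), the Het mice had 1 floxed and 1 wild-type copy (Dot1Lfl/wt), and the WT mice had no floxed copy (Dot1Lwt/wt). Each genotype was sampled as CD8 single positive cells of the thymus, as naive cells of the spleen (CD44- CD62L+) and as memory cells of the spleen (CD44+ CD62L+), in 4 libraries per group except WT thymus with 3. The labels give neither the promoter of the Cre transgene, the age of the mice, nor the floxed part of Dot1l.

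Cd5 and Cd6 are surface receptors of the scavenger receptor cysteine-rich (SRCR) family that sit beside the T cell receptor. Their long cytoplasmic tails are phosphorylated when the receptor is engaged, and they gather phosphatases, ubiquitin ligases and adaptors that tune the signal, mostly downwards in the case of Cd5. The amount of Cd5 on a T cell is set during selection in the thymus in proportion to how strongly its receptor sees self, which is why Cd5 is widely used as a gauge of that signal. Cd6 also binds Alcam (CD166) on other cells and contributes to adhesion.

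Both genes lie on the minus strand of chromosome 19 (GRCm38). Cd5 spans 10717116 to 10739002 and has 4928 bases of merged exons. Cd6 spans 10789341 to 10830058 and has 7968 bases of merged exons. The genes are 50.3 kb apart, and 91.1 kb lie between their 5′ ends. No other annotated gene overlaps either of them. The sequence upstream of Cd5 is shown because the gene fell in every KO subset, as described below. It comes from the RefSeq promoter table on GRCm38, which matched 1 of the 2 genes and has no entry for Cd6. The stretch covers the 222 bases before the annotated gene start, chr19:10739003-10739224, read 5′ to 3′ on the minus strand. Capitals mark the letters GGAA (the core of ETS factor sites, written TTCC where it lies on the other strand) and CANNTG (the E-box).
Cd5 promoter: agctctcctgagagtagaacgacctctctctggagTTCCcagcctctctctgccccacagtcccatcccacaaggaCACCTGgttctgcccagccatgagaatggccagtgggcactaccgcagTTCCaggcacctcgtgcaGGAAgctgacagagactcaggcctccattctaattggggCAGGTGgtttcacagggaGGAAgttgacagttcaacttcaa
The window held 4 copies of GGAA on the 2 strands together, starting 187, 98, 80 and 23 bases before the gene start, and 2 copies of CANNTG, starting 146 and 41 bases before it. No match overlapped another. These letters are common: 91.2% of 32525 promoter windows of 222 bases held GGAA on either strand and 62.4% held CANNTG. The RUNX core TGTGGT did not occur in the window on either strand and was held by 12.7% of all windows. Letter matches describe the sequence and do not show binding.

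Sequencing depth was 4809509 to 16879636 counts per library (median 10406516), and both genes passed the filter on low counts that left 10296 genes to test. Cd5 had 27 to 257 counts per library, with a mean of 103.6, and Cd6 had 232 to 1700, with a mean of 727.6. Several transcripts known to be abundant in CD8 T cells had few counts. Cd8a averaged 8.72 CPM (counts scaled to library size), Thy1 10.5 and Cd2 6.18, against 963 CPM for Lck and 232 CPM for Cd3e, so the Cd5 count cannot be taken as its true level. Comparisons between libraries use the same gene on both sides. All 12 CD8 T cell markers were detected in every group. Lck makes up most of their summed level, and Cd8a and Cd8b1 little of it (means of 8.72 and 5.58 CPM). In thymus the sum was 1475 to 1524 CPM in KO, 1509 to 1860 CPM in Het and 1597 to 1852 CPM in WT libraries. It was lower in KO than in WT libraries there, without overlap. In naive cells it was 1313 to 1578 CPM in KO and 1344 to 1632 CPM in WT libraries, and in memory cells 1294 to 1582 CPM in KO and 1521 to 1681 CPM in WT libraries, with overlap in both. Dot1l itself was not lower in libraries labelled KO than in WT libraries, with log2 fold changes of 0.20 ± 0.08 in thymus, 0.17 ± 0.08 in naive cells and 0.01 ± 0.08 in memory cells (adjusted p of 0.0891, 0.163 and 0.961, edgeR). Since the floxed part is not stated, reads summed over Dot1l do not test whether it was deleted, and KO below means libraries labelled KO.

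Cd5 fell in KO cells of every subset, and it fell most in memory cells. In the thymus the KO libraries held 8.40, 8.79, 6.80 and 7.89 CPM, the Het libraries 11.9, 14.5, 12.2 and 10.3 CPM, and the WT libraries 17.2, 14.9 and 14.7 CPM. The 3 genotypes did not overlap there, with KO lowest and Het between. Shares of all genes without overlap were computed only for KO below WT (given below), not for the other separations between groups described here. In naive cells Cd5 was at 5.06, 5.91, 4.30 and 4.72 CPM in KO libraries, 9.53, 11.2, 8.86 and 8.84 CPM in Het libraries, and 11.04, 10.1, 10.7 and 8.16 CPM in WT libraries. Every KO value was below every Het and WT value, while Het and WT overlapped. Memory cells had 3.57, 4.78, 3.28 and 3.81 CPM of Cd5 in KO libraries, 12.3, 13.4, 11.3 and 13.6 CPM in Het libraries, and 13.0, 14.1, 11.7 and 14.9 CPM in WT libraries. Again KO lay apart from both other genotypes, and Het and WT overlapped. The thinnest value was KO memory replicate 4, with 27 reads on Cd5 and an exact 95% Poisson interval of 17.8 to 39.3 reads, which covers counting error only. In bulk RNA such as this, fewer cells with the transcript and less of it per cell cannot be told apart.

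Cd6 followed the same order of genotypes at higher counts. The KO thymus libraries had 64.3, 70.2, 63.2 and 79.4 CPM, the Het libraries 94.2, 102, 89.9 and 72.9 CPM, and the WT libraries 106, 98.8 and 111 CPM. KO was below WT throughout, and Het overlapped both. In naive cells Cd6 stood at 42.5, 51.8, 37.1 and 37.9 CPM in KO libraries, 68.1, 66.1, 59.6 and 72.3 CPM in Het libraries, and 78.8, 68.7, 72.3 and 65.0 CPM in WT libraries. KO lay below both other genotypes without overlap. Memory cells had 27.8, 23.9, 33.0 and 32.7 CPM in KO libraries, 68.8, 80.4, 70.0 and 68.1 CPM in Het libraries, and 82.0, 87.3, 79.9 and 82.5 CPM in WT libraries. KO values there were less than those of any Het or WT library, and a single Het library reached into the WT range.

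**Figure D1:**
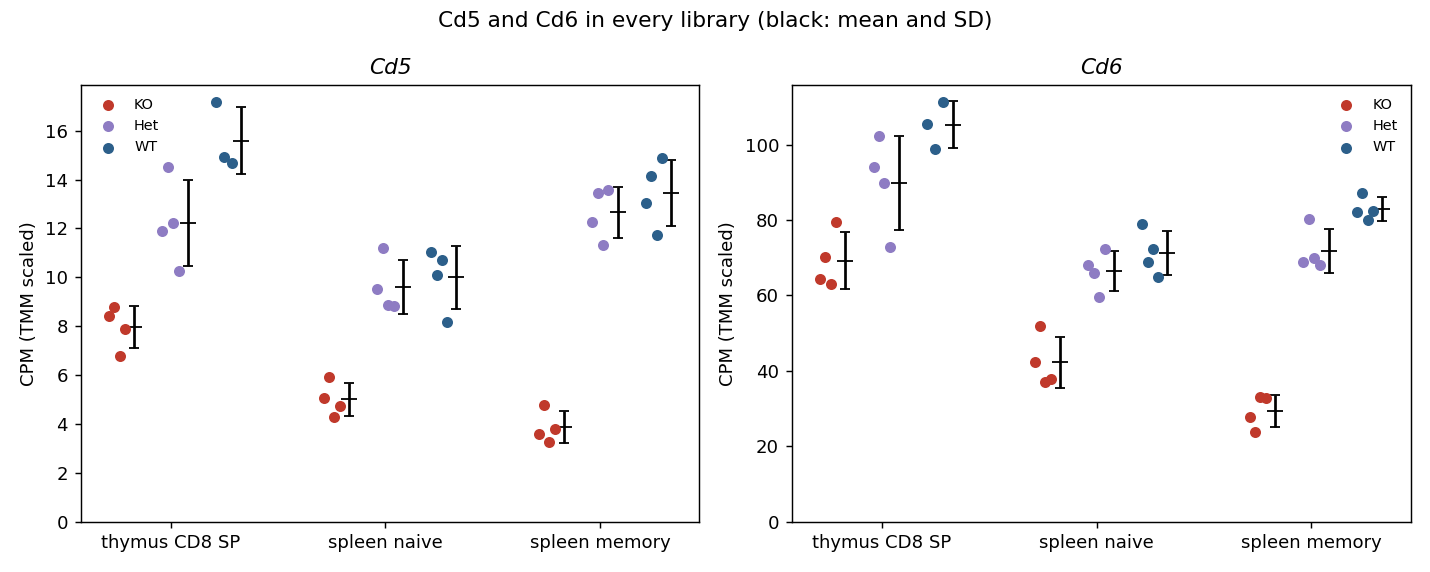
TMM-scaled CPM of Cd5 (left) and Cd6 (right) in each of 35 libraries, by subset, with KO, Het and WT from left to right in each subset. Points are libraries and black bars are the mean and SD. In memory cells the KO libraries lie at 3.28 to 4.78 CPM for Cd5 and 23.9 to 33.0 CPM for Cd6, below all Het and WT libraries.

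Group means put the same facts on 1 scale. Cd5 averaged 7.97 ± 0.865 CPM in KO, 12.2 ± 1.75 in Het and 15.6 ± 1.38 in WT thymus cells (SD, n = 4, 4 and 3). In naive cells it averaged 5.0 ± 0.685 CPM in KO, 9.61 ± 1.10 in Het and 9.999 ± 1.28 in WT libraries, and in memory cells 3.86 ± 0.651 CPM in KO, 12.7 ± 1.06 in Het and 13.4 ± 1.36 in WT libraries (SD, n = 4 each). From the lowest mean to the highest, the order for Cd5 was KO memory, KO naive, KO thymus, Het naive, WT naive, Het thymus, Het memory, WT memory and WT thymus. Neighbours in that order overlapped except at the gaps between KO naive and KO thymus and between KO thymus and Het naive. Cd6 averaged 69.3 ± 7.43 CPM in KO, 89.8 ± 12.4 in Het and 105 ± 6.23 in WT thymus cells (SD, n = 4, 4 and 3). Its means were 42.3 ± 6.76 CPM in KO, 66.5 ± 5.29 in Het and 71.2 ± 5.88 in WT naive cells, and 29.4 ± 4.35 CPM in KO, 71.8 ± 5.75 in Het and 82.9 ± 3.12 in WT memory cells (SD, n = 4 each). The order for Cd6 was KO memory, KO naive, Het naive, KO thymus, WT naive, Het memory, WT memory, Het thymus and WT thymus. Here the gaps without overlap were between KO memory and KO naive and between KO naive and Het naive. Per kilobase of exon, the group means ran from 0.783 to 3.16 CPM for Cd5 and from 3.68 to 13.2 CPM for Cd6.

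The first question was how far the genes differed between libraries labelled KO and WT in each subset. In KO against WT thymus cells the log2 fold change was -0.97 ± 0.14 for Cd5 and -0.60 ± 0.11 for Cd6 (SE, adjusted p of 1.46e-06 and 4.0e-05, edgeR's quasi-likelihood test over all 10296 genes). Both genes were called lower, where 6.77% of all tested genes were. In naive cells the log2 fold change was -0.99 ± 0.15 for Cd5 and -0.75 ± 0.10 for Cd6 (adjusted p of 1.78e-06 and 3.89e-07, edgeR), and 7.11% of all genes were called lower. In memory cells it was -1.81 ± 0.14 for Cd5 and -1.50 ± 0.10 for Cd6 (adjusted p of 2.1e-13 and 4.64e-15, edgeR), with 9.32% of all genes called lower. The memory values correspond to 0.284 times the WT level for Cd5 and 0.353 times for Cd6. Among the fold changes of 10296 genes in memory cells, Cd5 was the 38th lowest and Cd6 the 64th lowest. Only 203 genes, or 1.97% of those tested, were called lower in all 3 subsets, and Cd5 and Cd6 are 2 of them. Every KO library was below every WT library for both genes in each subset, a pattern that 11.1% of all genes showed in thymus, 8.25% in naive cells and 11.9% in memory cells.

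These fold changes depend a little on what the libraries are scaled to. Centring each library on its mean log level in place of TMM moved the median gene by -0.13 in thymus, -0.13 in naive cells and -0.15 in memory cells on the log2 scale. The share of genes called lower was then 15.3% in thymus, 17.9% in naive cells and 22.2% in memory cells, and the share called higher 8.26%, 8.4% and 9.5%, where TMM gave 11.9%, 11.1% and 12.8% higher. Cd5 and Cd6 were called lower in all 3 subsets under both scalings. Sex also differed between groups, since transcripts of the sex chromosomes put 1 female library in each KO group of 4 and 2 in the WT naive and WT memory groups. Among libraries from males Cd5 averaged 4.05 CPM in KO (n = 3) and 14.0 CPM in WT memory cells (n = 2), and Cd6 28.1 and 82.2 CPM. A library that stood apart was KO naive replicate 4, whose summed B cell markers reached 568 CPM, against at most 384 CPM in WT naive libraries. Without it the log2 fold change in naive cells was -0.96 for Cd5 and -0.70 for Cd6, and both were still called.

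The Het libraries serve as a second comparison for the same KO libraries, which the KO against WT comparison shares. KO cells were lower than Het cells for both genes in each subset. In the thymus the log2 fold change of KO against Het was -0.63 ± 0.13 for Cd5 and -0.37 ± 0.10 for Cd6 (adjusted p of 0.000538 and 0.00544, edgeR), although KO and Het libraries overlapped for Cd6. There 7.28% of all genes were called lower. In naive cells it was -0.94 ± 0.15 for Cd5 and -0.66 ± 0.10 for Cd6 (adjusted p of 3.34e-06 and 4.78e-06, edgeR), with 6.5% of genes called lower. Memory cells gave -1.72 ± 0.15 for Cd5 and -1.29 ± 0.11 for Cd6 (adjusted p of 2.31e-12 and 6.76e-13, edgeR), with 8.59% of genes called lower.

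Neither gene was called in Het against WT libraries of any subset. Cd5 in Het against WT had a log2 fold change of -0.34 ± 0.14 in thymus (adjusted p = 0.776, edgeR), although its Het and WT libraries did not overlap there. It was -0.05 ± 0.14 in naive cells, with a 95% interval of -0.33 to 0.24, and -0.09 ± 0.13 in memory cells, with an interval of -0.36 to 0.18. Cd6 gave -0.23 ± 0.11 in thymus, -0.09 ± 0.10 in naive cells and -0.21 ± 0.10 in memory cells (adjusted p of 0.800, 1 and 0.972, edgeR). All 6 values were below 0. Over all genes edgeR called 0 in thymus, 0 in naive cells and 1 in memory cells (0%, 0% and 0.00971%), DESeq2 called 0, 0 and 2, and 636, 275 and 527 genes had an unadjusted edgeR p under 0.05. These intervals leave room for a modest difference, so they do not show that Het and WT are alike.

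**Figure D2:**
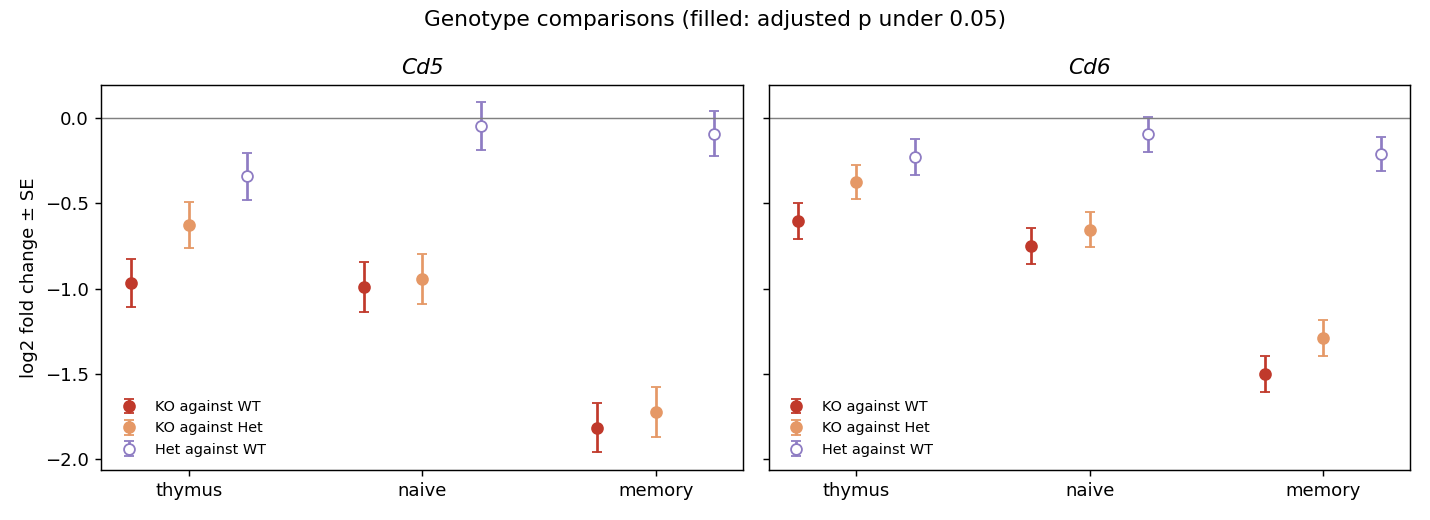
Log2 fold changes of Cd5 (left) and Cd6 (right) for KO against WT, KO against Het and Het against WT in each subset. Points are edgeR estimates, bars are ± SE, and filled points have an adjusted p under 0.05. In memory cells KO against WT lies at -1.81 for Cd5 and -1.50 for Cd6, and none of the 6 Het against WT points is filled.

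Next, the subsets were compared within each genotype. Naive cells had less of both transcripts than thymus cells in all 3 genotypes. For naive against thymus cells the log2 fold change of Cd5 was -0.67 ± 0.15 in KO, -0.35 ± 0.13 in Het and -0.64 ± 0.14 in WT mice (adjusted p of 0.000226, 0.0326 and 0.000411, edgeR). That of Cd6 was -0.71 ± 0.10 in KO, -0.43 ± 0.10 in Het and -0.57 ± 0.11 in WT mice (adjusted p of 1.9e-07, 0.000505 and 4.65e-05, edgeR). All 6 were called lower, in comparisons where 21.7% (KO), 19.7% (Het) and 16.9% (WT) of all genes were. The Het value of Cd5 is the weak one, since its libraries overlapped and it was not called without Het thymus replicate 2 (log2 fold change of -0.25, adjusted p = 0.163, edgeR), replicate 3 of the thymus or replicate 1, 3 or 4 of the naive libraries.

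Memory against naive cells is where the genotypes parted. In WT mice Cd5 was higher in memory cells, with a log2 fold change of 0.44 ± 0.14 (adjusted p = 0.0202, edgeR), as were 7.68% of all genes, and every memory library was above every naive one. The call was not held without WT naive replicate 4 (adjusted p = 0.134), WT memory replicate 2 (0.0524) or WT memory replicate 4 (0.0743, all edgeR). Cd6 in WT mice was at 0.22 ± 0.10 and not called (adjusted p = 0.142, edgeR), and with the replicate number as a block it was called (adjusted p = 0.00952, edgeR). Het mice had a Cd5 fold change of 0.40 ± 0.14 (adjusted p = 0.0368, edgeR), where 8.31% of genes were called higher, and a Cd6 fold change of 0.11 ± 0.10 (adjusted p = 0.545). The Het call of Cd5 was not held with mean log centring or without any filter on low counts, nor without Het naive replicate 1, 3 or 4 or Het memory replicate 1, 2 or 4, with adjusted p of at most 0.122 among these. KO mice went the other way. Their Cd6 was lower in memory than in naive cells, at -0.53 ± 0.11 (adjusted p = 0.000223, edgeR), as were 8.61% of all genes. With the replicate number as a block this Cd6 call was not held (adjusted p = 0.0523, edgeR), where the lowest correlation of equally numbered libraries, 0.0995, was just under the 0.1 taken as pairing. Cd5 in KO mice was at -0.38 ± 0.16 without being called (adjusted p = 0.0887, edgeR). Without KO memory replicate 2, which had the highest Cd5 of its group, the Cd5 value was -0.51 and was called (adjusted p = 0.0310, edgeR).

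Memory cells set against thymus cells completed the picture. In KO mice both genes were lower in memory cells, Cd5 by a log2 fold change of -1.05 ± 0.15 and Cd6 by -1.24 ± 0.10 (adjusted p of 1.24e-07 and 2.54e-13, edgeR), as were 23.9% of all genes. In Het mice Cd5 was at 0.04 ± 0.13 and not called, while Cd6 was lower at -0.33 ± 0.10 (adjusted p of 0.834 and 0.00691, edgeR, with 22.6% of genes called lower). In WT mice Cd5 was at -0.20 ± 0.14 and not called, and Cd6 was lower at -0.34 ± 0.11 (adjusted p of 0.251 and 0.00824, edgeR, with 20.3% of genes called lower). Cd5 values of memory and thymus libraries overlapped in Het and WT mice and did not in KO mice.

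Whether the KO effect differed between subsets was tested directly as an interaction. The log2 fold change of KO against WT in memory cells minus that in naive cells was -0.82 ± 0.21 for Cd5 and -0.75 ± 0.15 for Cd6 (adjusted p of 0.0222 and 0.00149, edgeR). Both were called, where 1.12% of all genes were called lower. The Cd5 term lost its call without WT naive replicate 4, WT memory replicate 4, KO naive replicate 2, KO memory replicate 1 or KO memory replicate 3, each left out alone, with adjusted p of 0.0575 to 0.0723. Memory minus thymus, which shares the memory libraries with the first term, was -0.85 ± 0.20 for Cd5 and -0.90 ± 0.15 for Cd6 (adjusted p of 0.00412 and 4.2e-05, edgeR, with 5.14% of genes called lower). Naive minus thymus was -0.02 ± 0.20 for Cd5 and -0.15 ± 0.15 for Cd6, and neither was called (adjusted p of 0.968 and 0.663, edgeR, with 3.33% of genes called lower). Its 95% interval was -0.43 to 0.39 for Cd5.

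Cd5 and Cd6 thus both fell, and the balance between them was compared as log2(CPM + 2) of Cd5 minus that of Cd6 in each library. In the thymus the balance was -2.84 ± 0.16 in KO and -2.61 ± 0.14 in WT libraries (SD, n = 4 and 3), a difference of -0.23 (two-sided exact permutation p = 0.143, adjusted over 3 subsets 0.429, smallest possible p 0.0571). In naive cells it was -2.66 ± 0.08 in KO and -2.61 ± 0.08 in WT libraries, a difference of -0.04 (exact permutation p = 0.429, adjusted 0.643). In memory cells it was -2.42 ± 0.35 in KO and -2.46 ± 0.10 in WT libraries, a difference of 0.05 (exact permutation p = 0.857, adjusted 0.857, smallest possible p 0.0286). The KO memory spread comes from replicate 2, which had the highest Cd5 and the lowest Cd6 of its group. Without it the difference was -0.11, so its sign rests on that library and on the pseudocount. With the pseudocount at 0.5 the difference was -0.32 in thymus, -0.18 in naive cells and -0.19 in memory cells. The pseudocount of 2 weighs more on Cd5, the gene with the lower CPM, and gave values nearer to 0 or above it. No difference in balance was detectable with these numbers of libraries.

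Over the 35 libraries the log2 CPM of Cd5 and of Cd6 had a Pearson r of 0.93 and a Spearman rho of 0.88. This is a description, since the points share the differences between groups and the depth of each library. After each group's mean was taken off, r was 0.33 and rho 0.37. Cd6 ranked 2nd of 7828 genes in likeness to Cd5, and Cd5 ranked 2nd in likeness to Cd6. Each ranking left out genes with a mean log2 CPM under 1.

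**Figure D3:**
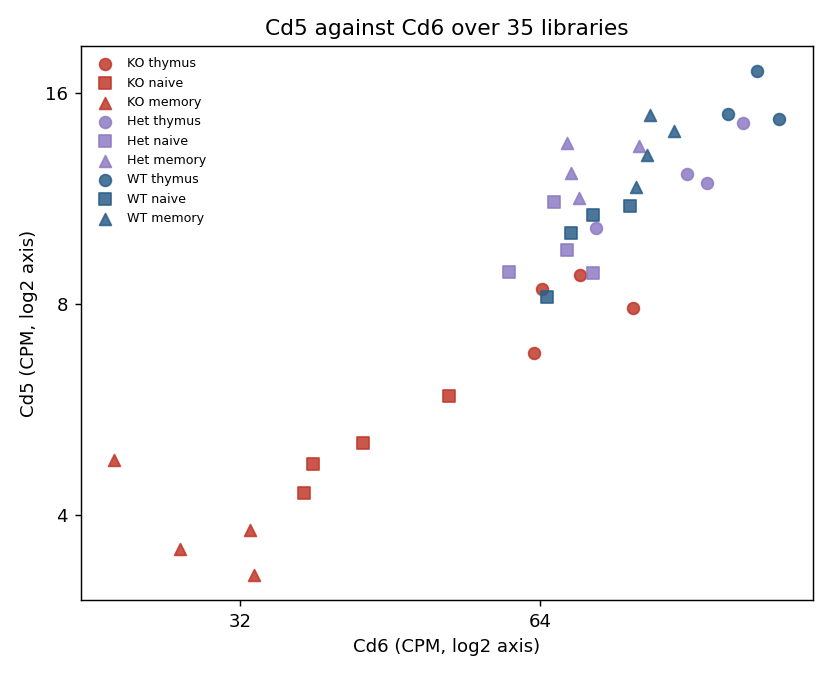
CPM of Cd5 (vertical) against Cd6 (horizontal) in 35 libraries, both on log2 axes, coloured by genotype with a marker for each subset. The KO memory libraries lie at the lower left, from 23.9 to 33.0 CPM of Cd6, and the WT thymus libraries at the upper right, from 98.8 to 111 CPM of Cd6.

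The genes most like Cd5 over the 35 libraries, by Pearson r of log2 CPM, were Pitpnm2 (r = 0.93), a phosphatidylinositol transfer protein, Dgkd (0.93), a diacylglycerol kinase, Sh3pxd2a (0.89), a scaffold of podosomes, Cdon (0.88), a surface receptor of the immunoglobulin superfamily, and Trim59 (0.87), a RING finger protein. Those most like Cd6 were Dgkd (r = 0.94), Uck2 (0.91), a uridine-cytidine kinase, Pacsin1 (0.88), a membrane-bending protein of endocytosis, Spata6 (0.88), and Msn (0.87), which ties the membrane to actin. All 9 were called lower in KO against WT memory cells. Dgkd had log2 fold changes of -0.59 in thymus, -0.40 in naive cells and -0.91 in memory cells (adjusted p of 3.43e-08, 1.68e-05 and 2.93e-14, edgeR). Pitpnm2 had -0.75, -0.77 and -1.04 (adjusted p of 7.31e-05, 2.86e-05 and 6.65e-08, edgeR). Of the 9, only Sh3pxd2a lies on chromosome 19. The rule picks genes that follow the genotype and subset differences of Cd5 or Cd6, so their direction in KO cells is not a separate finding.

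Because the genes are neighbours, the annotated protein coding genes within 150 kb of them were examined too. There were 16, of which 8 had enough counts to test. In KO against WT libraries 0 of the 8 were called lower in any subset by edgeR, where 6.77% (thymus), 7.11% (naive) and 9.32% (memory) of all genes were. Among so few genes a count of 0 is near that background and does not set the neighbours apart. Moreover 6 of the 8 averaged under 50 counts per library, where a change of moderate size was not detectable. Prpf19, a splicing factor whose start lies 156.2 kb from that of Cd5, was called higher in thymus at 0.29 ± 0.08 (adjusted p = 0.0101, edgeR), a call not held with mean log centring (0.16, adjusted p = 0.202) or without WT thymus replicate 2 (0.23, adjusted p = 0.0936). Ddb1, a DNA damage recognition protein and by far the most counted neighbour at 620 CPM, had log2 fold changes of 0.16 ± 0.06, 0.13 ± 0.06 and 0.15 ± 0.06 across thymus, naive and memory cells without being called. Vps37c, an ESCRT subunit and the nearest tested gene to Cd5, was at 0.29 ± 0.31, -0.06 ± 0.30 and -0.32 ± 0.29 on a mean of 18.97 counts. The noncoding gene A430093F15Rik between Cd5 and Cd6 had a mean of 2.54 counts and was not tested.

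**Figure D4:**
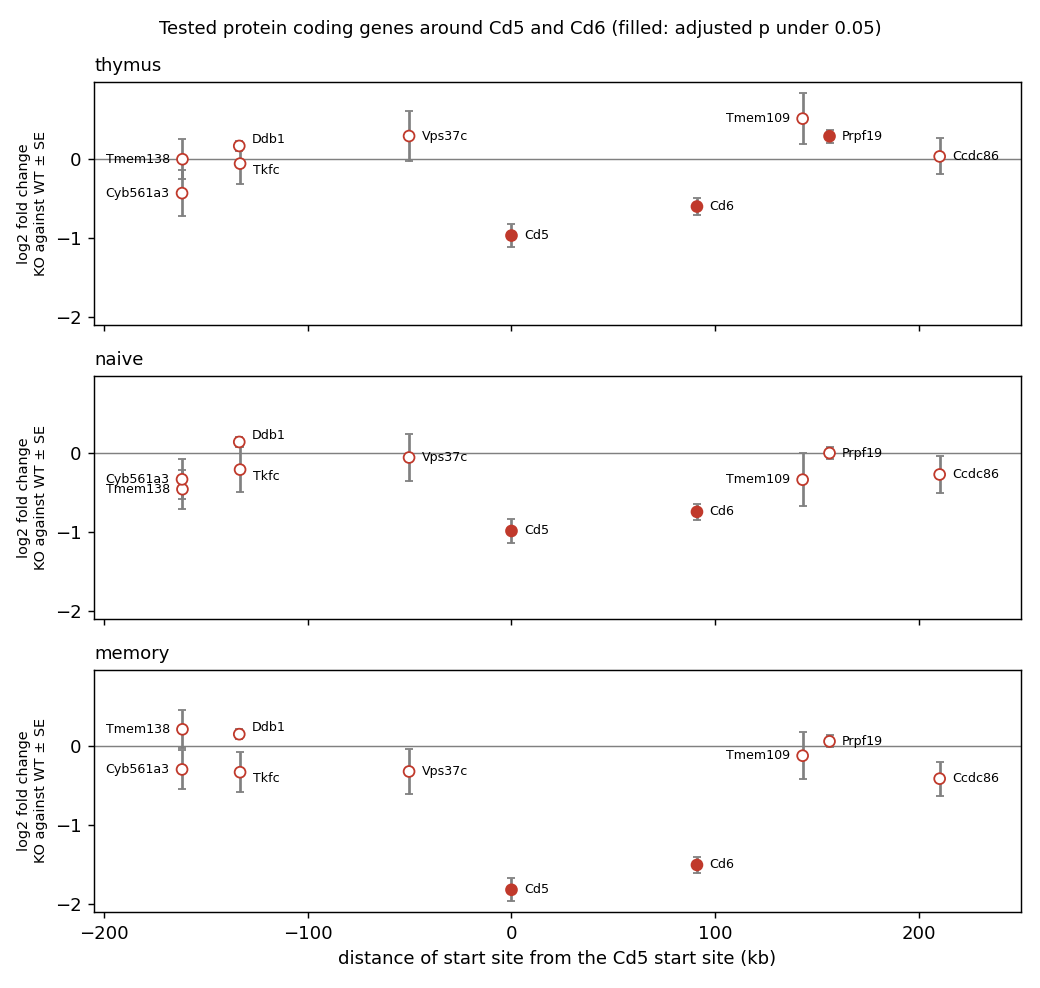
Log2 fold change of KO against WT ± SE (vertical) for Cd5, Cd6 and the 8 tested protein coding genes around them, by distance of the start site from that of Cd5 in kb (horizontal), in thymus, naive and memory cells from top to bottom. Filled points have an adjusted p under 0.05. Cd5 and Cd6 lie lowest in each panel and are the only genes called lower.

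The rest of the pathway was read from gene lists in the order of their roles. Apart from Cd5 and Cd6 the lists of family members, ligands, partners, regulators, receptor components, reporters and promoter factors held 101 genes, of which 87 were tested. Of these 22 were called in KO against WT thymus, 20 in naive and 27 in memory cells, and 40, 26 and 40 with mean log centring. Of all genes 18.6%, 18.2% and 22.2% were called in either direction under TMM. By direction 11.9%, 11.1% and 12.8% were called higher and 6.77%, 7.11% and 9.32% lower. With mean log centring these were 8.26%, 8.4% and 9.5% higher and 15.3%, 17.9% and 22.2% lower. These shares are the background for each list count below, markers included. Of 11 SRCR family genes 4 had enough counts, namely Cd5, Cd6, Dmbt1 and Lgals3bp. Dmbt1, a secreted mucosal protein, was at 0.51 ± 0.52, 0.36 ± 0.46 and -0.62 ± 0.40 in thymus, naive and memory cells and was not called. Lgals3bp, a secreted galectin-binding protein, was called higher in naive cells at 0.39 ± 0.13 (adjusted p = 0.0298, edgeR), which mean log centring did not hold (0.26, adjusted p = 0.126), nor did leaving out WT naive replicate 1 or 2 or KO naive replicate 1 or 3. Cd5l had at most 5 counts in any library and was not tested.

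Of the 3 ligand genes, 2 were tested. Alcam, the ligand of Cd6, was at 5.63 to 11.4 CPM in KO thymus libraries, against 1.28 to 1.73 CPM in WT thymus libraries, and the groups did not overlap. Its log2 fold change was 2.49 ± 0.39 in thymus (adjusted p = 1.03e-05, edgeR), where 11.9% of all genes were called higher. It was 0.47 ± 0.34 in naive and -0.64 ± 0.33 in memory cells, and neither was called (adjusted p of 0.419 and 0.179, edgeR). Whether these differ between subsets was not tested. Cd72, reported to bind Cd5, averaged under 1 CPM in both genotypes and was not called. Cdcp1, another reported Cd6 ligand, had at most 3 counts in any library and was not tested.

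All 18 genes of proteins reported to bind the tails were tested. In KO against WT cells 1 was called higher and 2 lower in thymus, 2 higher and 2 lower in naive, and 1 higher and 4 lower in memory cells. With mean log centring these were 1 and 9, 0 and 5, and 0 and 8. Their median log2 fold change was -0.06 (thymus), 0.01 (naive) and -0.03 (memory), beside 0.02, 0.00305 and 0.00716 over all genes. Cblb, a ubiquitin ligase that restrains T cell activation, fell in all 3 subsets, at -0.26 ± 0.07, -0.48 ± 0.07 and -0.73 ± 0.07 (adjusted p of 0.00853, 5.05e-07 and 1.28e-11, edgeR). Its thymus call was not held without WT thymus replicate 1 or KO thymus replicate 4, with adjusted p of 0.0557 and 0.0591. Grap2, the adaptor GADS that links LAT to SLP-76, also fell in all 3, at -0.60 ± 0.16, -0.87 ± 0.15 and -0.98 ± 0.16 (adjusted p of 0.00749, 3.3e-05 and 3.95e-06, edgeR), and its thymus call was not held without WT thymus replicate 2 (0.0587). Ptpn6, the phosphatase SHP-1, fell in memory cells at -0.32 ± 0.09 (adjusted p = 0.00839, edgeR). Ubash3b, a phosphatase of the receptor's kinases, was higher in thymus at 0.46 ± 0.09 and in naive cells at 0.29 ± 0.08 (adjusted p of 0.000212 and 0.0103, edgeR), the naive call not with mean log centring. Cbl, a ubiquitin ligase, was higher in naive cells at 0.25 ± 0.06 and in memory cells at 0.28 ± 0.06 (adjusted p of 0.00145 and 0.000341, edgeR), neither with mean log centring.

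Other negative regulators of receptor signalling were called in both directions. Of 28 tested, 2 were called higher and 4 lower in thymus, 6 higher and 2 lower in naive, and 4 higher and 4 lower in memory cells. Among all genes 18.6%, 18.2% and 22.2% were called in either direction. Mean log centring gave 2 and 10, 3 and 3, and 2 and 10, and the thymus total of 6 fell to 3 without WT thymus replicate 1 or without KO thymus replicate 4. Their median log2 fold change over the list was -0.10 (thymus), 0.11 (naive) and 0.00104 (memory). The biggest change among them was in Spry2, an inhibitor of Ras signalling, with 14.8 to 20.0 CPM in KO thymus libraries, against 1.22 to 5.86 CPM in WT thymus libraries. Spry2 rose by log2 fold changes of 2.34 ± 0.48, 3.65 ± 0.51 and 1.96 ± 0.36 in thymus, naive and memory cells (adjusted p of 0.000717, 3.99e-06 and 0.000152, edgeR). Dgka, a diacylglycerol kinase that ends the Ras signal, fell at -0.41 ± 0.07 in naive and -0.63 ± 0.07 in memory cells (adjusted p of 6.03e-05 and 1.15e-08, edgeR). Its thymus value of -0.22 ± 0.08 was close to the threshold (adjusted p = 0.0461, edgeR) and was not called with DESeq2 (0.0645) or without any single thymus library of KO or WT other than KO replicate 1 (0.0558 to 0.176). Nfkbia, the inhibitor of NF-κB, was called in opposite directions, lower in thymus at -0.51 ± 0.09 and higher in naive cells at 0.27 ± 0.09 and in memory cells at 0.34 ± 0.09 (adjusted p of 8.58e-05, 0.0253 and 0.00344, edgeR). Neither of the 2 higher calls was held with mean log centring (adjusted p of 0.292 and 0.109), and the naive call was not held without WT naive replicate 3 or 4 or KO naive replicate 3 or 4. Dok2, a docking adaptor, was higher in naive cells at 0.67 ± 0.16 and in memory cells at 0.82 ± 0.15 (adjusted p of 0.00142 and 2.95e-05, edgeR), and Tnfaip3, the ubiquitin-editing enzyme A20, was higher in naive cells at 0.57 ± 0.13 (adjusted p = 0.00111, edgeR). Cblb, Ubash3b, Cbl and Ptpn6 are among several genes that are on both this list and that of the tail partners. The counts of these lists are therefore not separate.

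**Figure D5:**
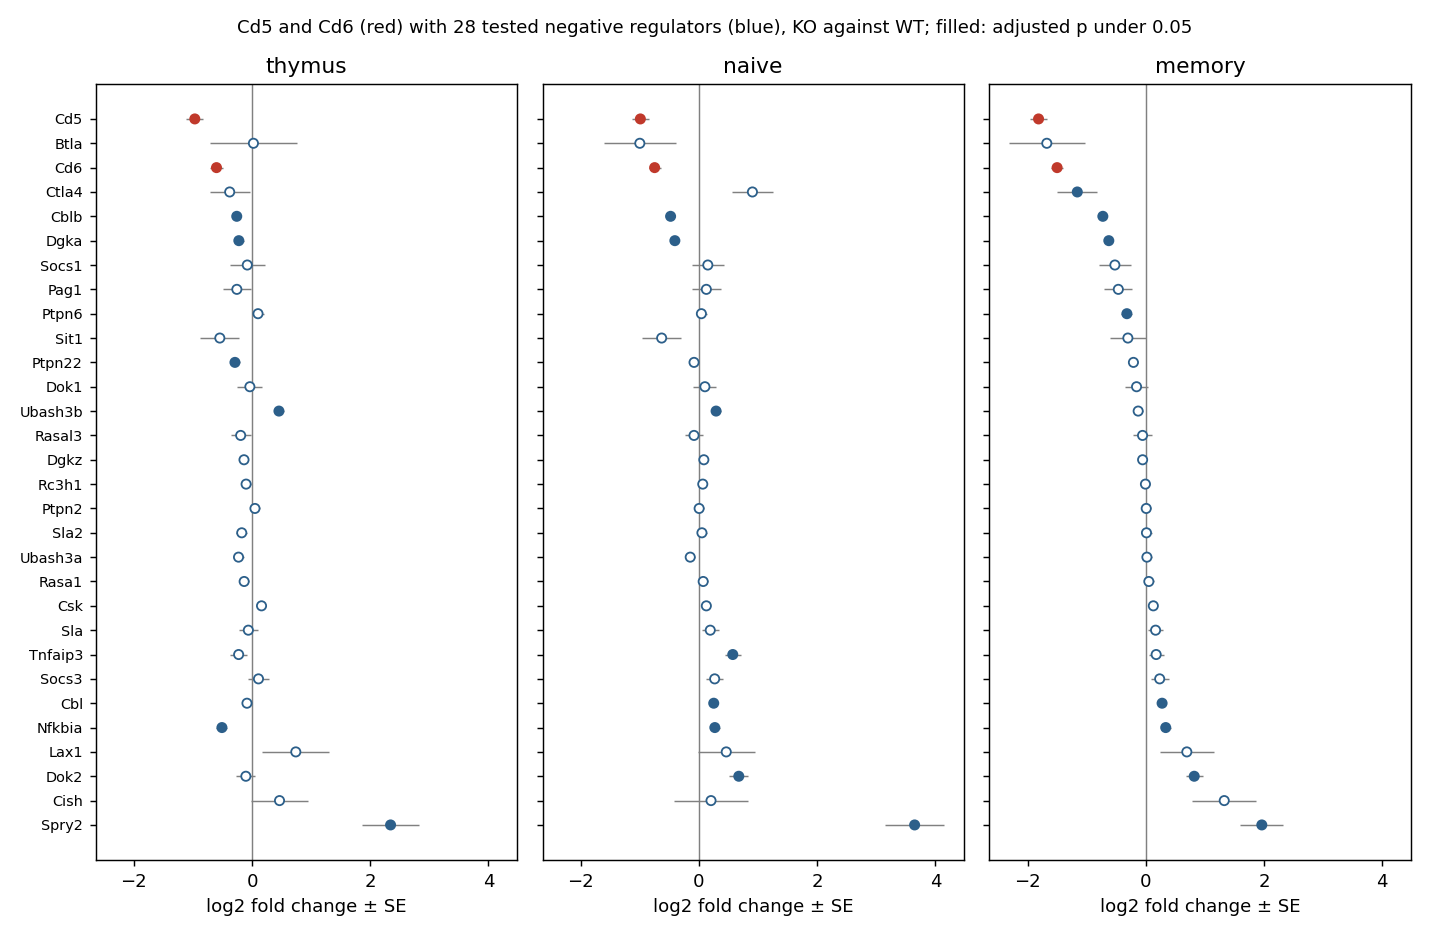
Log2 fold change of KO against WT ± SE (horizontal) for Cd5 and Cd6 (red) and 28 tested negative regulators of receptor signalling (blue), in thymus, naive and memory cells, ordered by the memory value. Filled points have an adjusted p under 0.05. Cd5 and Cd6 are filled on the lower side in all 3 panels, and Spry2 on the higher side at 2.34, 3.65 and 1.96.

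Some genes of the receptor complex and its nearest kinases were lower in KO cells. Of 26 tested, 7 were called lower in thymus, 5 in naive cells and 9 in memory cells, where 6.77%, 7.11% and 9.32% of all genes were, and 0 were called higher by edgeR in any subset. With mean log centring 15, 8 and 12 were called lower, where 15.3%, 17.9% and 22.2% of all genes were, and again 0 higher. Over the list the median log2 fold change was -0.19 (thymus), -0.05 (naive) and -0.13 (memory), and most members were not called. Cd247, the zeta chain that carries the signal, was at 30.9 to 32.8 CPM in KO thymus libraries, against 45.8 to 52.3 CPM in WT thymus libraries, and the groups did not overlap. The log2 fold changes of Cd247 were -0.61 ± 0.09 in thymus, -0.68 ± 0.09 in naive cells and -0.43 ± 0.09 in memory cells (adjusted p of 3.19e-06, 1.14e-07 and 0.000168, edgeR). Plcg1, the phospholipase that opens the calcium and Ras branches, was at -0.38 ± 0.06 in thymus and -0.21 ± 0.05 in naive cells (adjusted p of 2.95e-06 and 0.00318, edgeR). Ptprc, the phosphatase CD45, was at -0.40 ± 0.09 in thymus and -0.37 ± 0.08 in memory cells (adjusted p of 0.00089 and 0.000545, edgeR).

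Genes that report the strength of the receptor signal, as Cd5 itself does, gave a mixed picture. Of 11 tested, 0 were called higher and 3 lower in thymus, 3 higher and 0 lower in naive, and 1 higher and 3 lower in memory cells. With mean log centring these were 0 and 5, 3 and 2, and 1 and 3. Nr4a1, an immediate target of the receptor, was at 22.8 to 28.5 CPM in KO thymus libraries, against 35.2 to 40.2 CPM in WT thymus libraries, with a log2 fold change of -0.65 ± 0.17 (adjusted p = 0.00411, edgeR). In naive cells it was higher, at 11.7 to 14.4 CPM in KO libraries, against 4.396 to 8.01 CPM in WT libraries, with a log2 fold change of 1.18 ± 0.20 (adjusted p = 1.51e-05, edgeR). Egr1 was called lower in thymus at -0.71 ± 0.21 and in memory cells at -0.80 ± 0.22 (adjusted p of 0.0172 and 0.00751, edgeR), and Egr2 at -0.68 ± 0.23 and -1.08 ± 0.25 (0.0361 and 0.00145). The thymus calls of Egr1 and Egr2 were not held without WT thymus replicate 1 or 3 or KO thymus replicate 3, and that of Egr2 not without KO thymus replicate 1 or 4. Egr3 fell in memory cells at -1.41 ± 0.24 (adjusted p = 4.26e-05, edgeR). Bcl2l11, the death gene Bim that acts in negative selection, was higher in naive cells at 1.15 ± 0.16 and in memory cells at 1.00 ± 0.15 (adjusted p of 3.14e-07 and 7.58e-07, edgeR), and Irf4 was higher in naive cells at 1.36 ± 0.32 (adjusted p = 0.00144, edgeR).

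All 12 factors listed as reported at the Cd5 or Cd6 promoters were tested. In thymus 1 was called higher and 4 lower, in naive cells 2 higher and 1 lower, and in memory cells 3 higher and 3 lower, and mean log centring gave 0 and 6, 2 and 4, and 3 and 7. Among the ETS family, Elf1 fell in all 3 subsets at -0.57 ± 0.08, -0.36 ± 0.08 and -0.42 ± 0.08 (adjusted p of 1.03e-06, 0.00046 and 3.56e-05, edgeR), and Ets1 fell in thymus at -0.44 ± 0.07 (adjusted p = 5.04e-06, edgeR). Runx1 was called lower in thymus at -0.63 ± 0.14 and Runx3 higher in memory cells at 0.70 ± 0.14 (adjusted p of 0.00082 and 0.000297, edgeR). Of the E proteins, which bind E-boxes, Tcf4 was higher in naive cells at 1.78 ± 0.19 and in memory cells at 2.57 ± 0.20 (adjusted p of 2.95e-08 and 2.19e-11, edgeR). Its thymus value of 0.56 ± 0.19 was close to the threshold (adjusted p = 0.0434, edgeR) and was not called with mean log centring (0.0944) or without any single KO or WT thymus library (0.0518 to 0.171). Tcf3 was also higher in these, at 0.60 ± 0.14 and 0.67 ± 0.13 (adjusted p of 0.00128 and 0.000107, edgeR), while Tcf12 was lower in thymus at -0.22 ± 0.06 and in memory cells at -0.19 ± 0.05 (adjusted p of 0.00515 and 0.00775, edgeR).

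Markers of other cells were read beside the Cd5 and Cd6 result. The summed level of 12 innate-like and gamma delta T cell markers was 18.0 to 34.5 CPM in KO, against 5.52 to 6.16 CPM in WT thymus libraries. It was 23.6 to 33.4 CPM in KO, against 1.95 to 9.11 CPM in WT naive libraries, and 23.3 to 32.6 CPM in KO, against 4.50 to 11.8 CPM in WT memory libraries. The transcription factor genes Maf (called higher in all 3 subsets) and Zbtb16 (called higher in thymus and naive cells) were the members called, and Trdc and Ncr1 were at 0 in every library. Maf also had the highest mean of these 12 over all libraries, at 8.42 CPM. The 8 CD4 and regulatory T cell markers summed to 17.2 to 27.9 CPM in KO, against 42.4 to 46.8 CPM in WT thymus libraries. Over all libraries Ikzf4 had the highest mean of the 8, at 11.3 CPM. Naive libraries overlapped, at 9.09 to 14.2 CPM in KO and 9.09 to 11.7 CPM in WT. Memory libraries had 17.7 to 27.8 CPM in KO, against 7.39 to 10.9 CPM in WT. Of the 4 tested, 2 were called lower in thymus and 0 higher. Naive and memory cells each had 1 called higher (Zbtb7b) and 1 lower (Izumo1r). Zbtb7b averaged 18.3 CPM in KO and 5.55 CPM in WT memory libraries. Cd4 had at most 2 counts in any library and Cd40lg at most 1. Since Cd8a, Thy1 and Cd2 also had few counts in these cells, low counts of a marker do not show that its cells were absent. Double positive thymocyte markers, 8 in all, summed to 22.0 to 34.8 CPM in KO, against 13.3 to 21.2 CPM in WT thymus libraries, and to 2.80 to 4.71 CPM in KO, against 0.65 to 2.56 CPM in WT naive libraries, with no overlap in either. In memory libraries they summed to 0.562 to 1.13 CPM in KO, against 0.277 to 1.08 CPM in WT. Of the 5 tested, 1 was called higher in each subset, and with mean log centring 0 in thymus. The 16 B cell markers summed to 187 to 208 CPM in KO, against 213 to 254 CPM in WT thymus libraries, and overlapped in the other subsets, with Cd37 making up most of the sum. Of the 11 tested, 1 was called higher and 1 lower in thymus, and 0 in the other subsets. Their median log2 fold change in thymus was 1.22, opposite in direction to the sum. The 12 myeloid markers summed to 0.854 to 2.48 CPM in KO, against 0.0862 to 0.814 CPM in WT thymus libraries, and to at most 20.4 CPM in KO and 25.02 CPM in WT libraries of the spleen, where the groups overlapped. Over all libraries Itgax and Csf1r, at means of 5.61 and 1.36 CPM, made up most of the myeloid sum. Of the 2 myeloid markers tested, 1 was called higher in thymus, and 0 were called in naive or memory cells. Of the 12 CD8 T cell markers, 2 were called lower in thymus, 2 in naive cells and 5 in memory cells, and 6, 3 and 8 with mean log centring, with 0 higher by edgeR under either scaling. The part of these cells in the Cd5 and Cd6 difference was not tested.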

How the data were processed

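RNA of 35 libraries of sorted mouse CD8 T cells in 9 groups was analysed. Trizol RNA was made into stranded TruSeq mRNA libraries and read as 65-base single ends, per the labels' protocols. TopHat2 2.1.0, TopHat, HTSeq 0.9.1 and the builds GRCm38 and mm10 are named, without their roles, per the submitters' processing notes. The annotation release and strand setting are not given in the sources used here. The values the authors deposited are raw counts per Ensembl gene in 1 table. GENCODE M21 (GRCm38) named 52403 of its 52636 identifiers.

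Counts were tested with edgeR 4.0.16 in R 4.3.3 (filterByExpr over the 9 groups, TMM factors of 0.927 to 1.07, robust quasi-likelihood F test, two-sided, over all 35 libraries with 26 residual degrees of freedom). Adjustment was by Benjamini-Hochberg over 10296 genes, with calls under 0.05. SE was derived from the log2 fold change and its F statistic. CPM are TMM-scaled, log2 CPM used a prior count of 2, and the ratio test a pseudocount of 2. The procedure was tested on simulated data.

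The members, gene lists and tests were chosen with earlier results of these data known. Named genes are Cd5, Cd6, Dot1l, up to 4 members of each list with the lowest adjusted p per subset (and their calls in the other subsets), the 5 genes most like each member, and coding neighbours within 150 kb. Markers and untested members named besides, and the CD8 transcripts with few counts, were chosen after their values were seen. Some genes of the lists are not reported here by name.

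Nothing in the labels ties replicates to separate mice, so the p values reflect library-to-library spread, which may be technical. No 2 libraries of a group agreed within sampling noise (51 pairs, lowest chi-square per gene 3.88). Equal replicate numbers are shared across groups. The deviations of equally numbered libraries correlated over 0.1 in every pair for KO against Het naive (0.144 to 0.262) and for memory against naive WT cells (0.206 to 0.310), and not in every pair of the other comparisons. Where there were 4 pairs, the mean correlation was 0.0988 to 0.244, also between genotypes. The single female library was replicate 3 in each KO and Het group. In WT mice replicate 3 was female in naive and memory cells but not in thymus, so that thymus library came from another mouse. Equal numbers may thus be linked in part, which the main tests do not model. Whether the other equal numbers within a genotype share a mouse was not tested.

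Alternatives were RLE scaling, mean log centring, testing every gene with a count, a minimum of 1 CPM in 4 libraries, non-robust estimation, a sex covariate, only the libraries compared, a replicate block, DESeq2 1.42.0, a pseudocount of 0.5, and each library left out in turn.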

Additional observations from a re-analysis of the deposited data

Results flagged for a closer look

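The KO effect differed between subsets by a direct test. KO against WT in memory minus naive cells was -0.82 on the log2 scale for Cd5 and -0.75 for Cd6, and memory minus thymus was -0.85 for Cd5 and -0.90 for Cd6, with adjusted p of 0.0222, 0.00149, 0.00412 and 4.2e-05 (edgeR). All 4 terms share the memory libraries.

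Cd6 in Het memory cells had 1 library far from the others, replicate 2 at 80.4 CPM, with the other 3 at 68.1 to 70.0 CPM. It has the lowest depth of its group, at 6456236 counts. This was 1 of 16 sets of 4 libraries examined, and chance alone flags about 1 in 20.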

How the results depend on the processing

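Cd5 and Cd6 were recomputed in 750 combinations of a comparison with an alternative. Of these 706 kept direction and side of the threshold, 29 lost a call, 3 gained one and 12 changed sign. Every KO against WT and KO against Het call of Cd5 and Cd6 in the 3 subsets held under every alternative run. KO against WT ranged over all alternatives from -1.10 to -0.89 for Cd5 and -0.73 to -0.56 for Cd6 in thymus, from -1.12 to -0.93 and -0.88 to -0.69 in naive cells, and from -1.96 to -1.75 and -1.65 to -1.43 in memory cells.

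The sign changes lay near 0. Cd5 KO against WT in naive minus thymus was 0.012 without a filter on low counts and -0.13 to 0.038 with a library left out. Cd5 in memory against thymus Het cells was -0.051 to 0.14 with a library left out. The Cd5 to Cd6 balance of KO against WT memory cells was -0.19 with a pseudocount of 0.5 and -0.11 to 0.15 with a library left out.

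Lost calls were those of Cd5 in naive against thymus Het cells, with mean log centring (-0.30), no filter (-0.36), only the libraries compared (-0.37), the replicate block (-0.36) and libraries left out (-0.45 to -0.25). Cd5 in memory against naive Het cells lost its call with centring (0.38), no filter (0.39), only the libraries compared (0.40), the block (0.41) and libraries left out (0.35 to 0.48). Cd5 in memory against naive WT cells lost it with libraries left out (0.34 to 0.49). The Cd5 term for memory minus naive lost it with no filter (-0.83, adjusted p = 0.0505) and with libraries left out (-0.94 to -0.73). Cd6 in memory against naive KO cells lost it with the replicate block (-0.53, adjusted p = 0.0523, edgeR), where pairing was narrowly missed. Gained calls were Cd6 in memory against naive WT cells with only the libraries compared (0.23, adjusted p = 0.0331) and with the block (0.23, adjusted p = 0.00952), and Cd5 in memory against naive KO cells with a library left out (-0.51 to -0.30). The block changed no other call of Cd5 or Cd6. For the interaction terms it joined equally numbered KO and WT libraries within a subset. It did not join the subsets of a genotype, so it does not cover that pairing. Of 87 tested signalling list genes 22 were called in KO against WT thymus, and 40 with mean log centring. The causes were not tested. Of 83 calls of other named genes, 13 were lost under at least 1 alternative and 0 changed sign.

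Depth limits Cd5 most, with 27 to 60 counts in KO memory libraries. Counting error alone gives 14.7% of the mean there, against a spread of 16.9% between libraries. Cd6 had 232 to 483 counts there, with 5.27% and 14.8%.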
